A study of Arabidopsis thaliana with 12 samples.

Results

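SWEET proteins are membrane carriers that let sugars cross a membrane down their concentration gradient, without coupling to protons. In plants they release sucrose from source leaf cells for loading into the phloem, feed nectaries, pollen and seeds, and move glucose and fructose across the vacuolar membrane. Plants also carry sugars in symporters (the SUC, STP, PMT and INT families), whereas amino acids move through AAP and LHT importers and through UMAMIT facilitators. Transcript levels of such sugar and amino acid transporter genes were sought in *Arabidopsis* seedlings by symbol. A gene was taken where its symbol was one of these 8 family names followed by a number and its probe set held exactly 1 gene in the platform annotation. This found 14 of the 16550 genes with such a probe set (38138 probe sets were tested in all), and all 14 were SWEETs: *SWEET1* to *SWEET4*, *SWEET6* to *SWEET11*, *SWEET13*, *SWEET14*, *SWEET16* and *SWEET17*. Each had a single probe set. None of the 92 RefSeq genes with a symbol of these families matched outside the SWEETs, so the other 7 families had 0 members, including 42 RefSeq UMAMIT genes, 8 AAP genes and 3 LHT genes. *SWEET12*, the remaining RefSeq SWEET symbol, was not analysed here either.

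The seedlings were 3 days old, whole, and grown in short days (SD, here always the light regime) with 16 h darkness after 8 h white light (85 µmol m-2 s-1). They stayed in SD, or spent the last day in continuous white light (LL), and were harvested at 24 h, the end of the night or of the subjective night. The genotypes were WT (Col-0) and *pifq*, mutant in 4 genes of phytochrome-interacting bHLH factors, *PIF1*, *PIF3*, *PIF4* and *PIF5*. Each genotype in each light regime (WT SD, *pifq* SD, WT LL, *pifq* LL) had 3 arrays, labelled as biological replicates, and all were grown without sucrose.

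All levels below are log2 signals of AraGene ST arrays. A log2 FC is the difference of 2 group means, given with the SE of that difference in a limma fit over all 12 arrays. A gene was called SS1.5F (statistically significant and changed by at least 1.5 fold) at a Benjamini-Hochberg adjusted p under 0.05 over all probe sets tested. The array medians ranged from 4.998 to 5.12, and each array correlated with the other arrays of its group at a mean r of 0.966 to 0.982. With the arrays of the other groups the mean r was 0.961 to 0.972. For *pifq* SD replicate 1 the 2 values were alike, 0.9716 in its group and 0.9718 with the other groups. The number of arrays limits the precision. *PIF1*, *PIF3* and *PIF5* were lower in *pifq* than in WT, with log2 FC of -1.61, -4.06 and -3.74 in SD and of -2.02, -3.40 and -3.39 in LL, all named through the study's list of called genes, and *PIF4* was not analysed here. Of the marker genes of green tissue, root, stored seed RNA and phloem, only the root hair expansins *EXPA7* and *EXPA18* had a named probe set, and neither was called in any comparison. These genes do not show which tissues were sampled, so the tissue label was not checked. In whole seedlings, fewer cells that hold a transcript and less transcript per cell cannot be told apart.

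The 14 SWEETs differed widely in signal. *SWEET11*, a plasma membrane sucrose carrier of phloem parenchyma cells, had the highest log2 signal of the 14 with a mean of 11.32 over the 12 arrays, and *SWEET8*, a glucose carrier needed for pollen wall formation, had the lowest with 2.69. Probe sets differ in their response, so levels of different genes are not compared further. A mean log2 signal of at least 5 was found for 6 of the 14 (*SWEET1*, *SWEET2*, *SWEET3*, *SWEET11*, *SWEET16* and *SWEET17*), and for 50.4% of all probe sets. The other 8 lay under 5, and 23 control probe sets that match no plant sequence ranged from 1.39 to 9.55 with a median of 5.22. The means of 13 of the 14 lie within the range of these control probe sets, and only *SWEET11* lies above it. The means of *SWEET3* and *SWEET17* and of the 8 also lie under the median of the control probe sets. This range and median pool the single-array values of all the control probe sets, so they give no background level for a given gene. The files give no detection call, so whether a SWEET was above background was not tested.

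**Figure D1:**
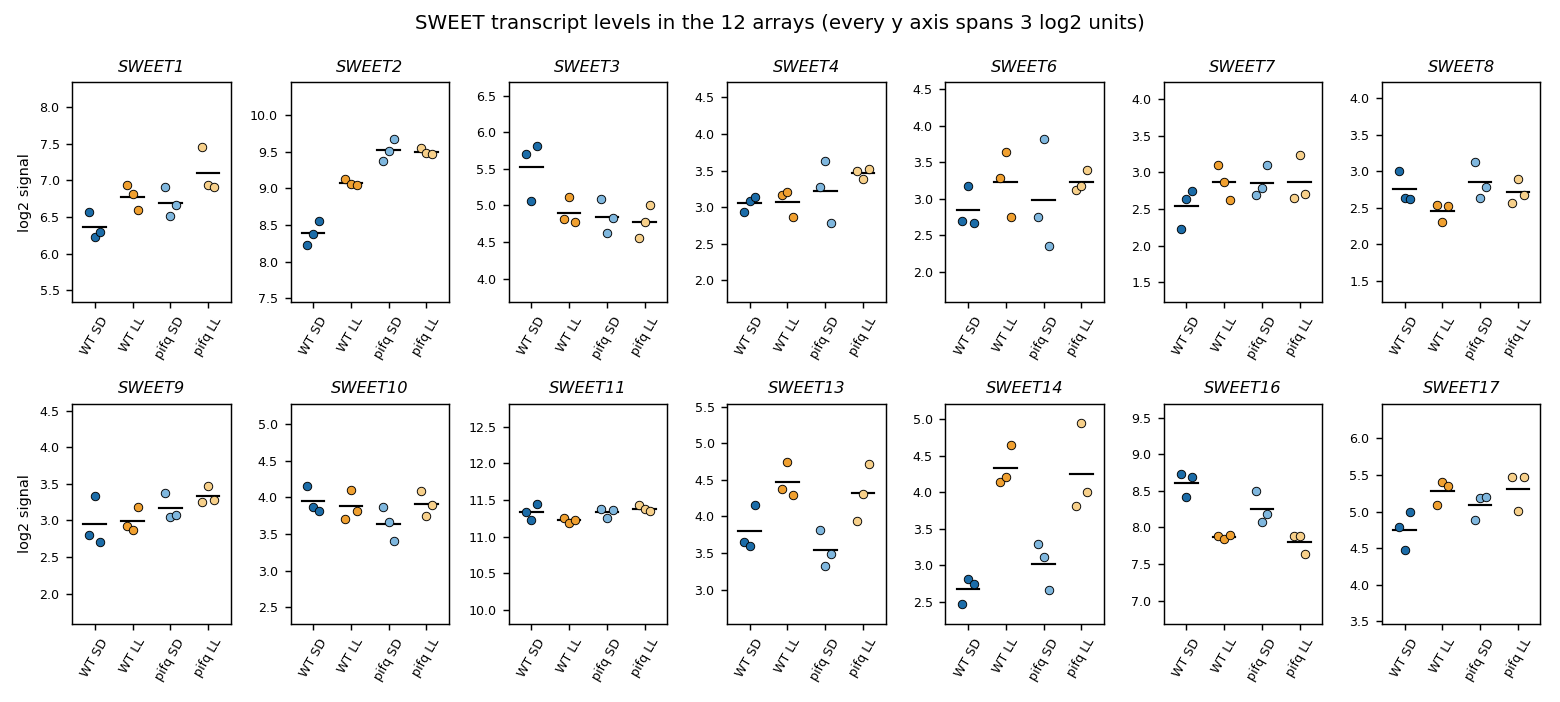
Log2 signal (y axis) of the 14 *SWEET* genes in the 4 groups (x axis), with 1 point per array and a bar at the mean of the 3 arrays. *SWEET2* is lowest in WT SD, *SWEET14* is lower in both SD groups, *SWEET16* is highest in WT SD, and *SWEET11* stays between 11.18 and 11.44.

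The comparison of WT SD with WT LL asked which SWEETs differed at the end of a long night from the same time in continuous light. *SWEET16* was higher, and *SWEET2* and *SWEET14* were lower, while the other 11 were not called. These 3 of 14 stand beside 6.6% of all probe sets called in this comparison, 3.16% higher and 3.43% lower. The 14 genes had a median log2 FC of -0.18, against -0.01 over all probe sets, with 5 above 0 and 9 below. At an unadjusted p under 0.05, 7 of the 14 passed, and 19.8% of all probe sets.

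*SWEET2* (AT3G14770) belongs to SWEET clade I and encodes a vacuolar membrane carrier that is known for holding back glucose in root cells. Its log2 signal was 8.23, 8.38 and 8.55 in WT SD and 9.13, 9.06 and 9.05 in WT LL. The *pifq* arrays gave 9.38, 9.51 and 9.67 in SD and 9.55, 9.49 and 9.47 in LL. All 3 WT SD arrays lay below the other 9, and the 2 groups of *pifq* overlapped. Between SD and LL in WT the log2 FC was -0.69 ± 0.12 (SE, n = 3 arrays per group, adjusted p = 0.00416), a change of 1.62 fold. In *pifq* the same comparison gave 0.01 ± 0.12 (adjusted p = 0.973), with a 95% interval of -0.25 to 0.27.

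*SWEET14* (AT4G25010) is a clade III plasma membrane carrier of sucrose that also moves gibberellin and is known from anthers. It had log2 signals of 2.47, 2.81 and 2.75 in WT SD and of 4.14, 4.21 and 4.65 in WT LL. In *pifq* they were 3.29, 3.11 and 2.66 in SD and 3.81, 4.94 and 4.0 in LL. The SD arrays lay below the LL arrays in both genotypes without overlap, and all 12 values are under the median of the background probe sets. In WT the SD to LL difference was a log2 FC of -1.66 ± 0.29 (adjusted p = 0.00484). This is a difference of signals that were not shown to lie above background.

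*SWEET16* (AT3G16690), a clade IV carrier of the vacuolar membrane for glucose, fructose and sucrose, went the other way. WT SD gave log2 signals of 8.73, 8.41 and 8.69 and WT LL of 7.88, 7.84 and 7.90. In *pifq* the values were 8.50, 8.08 and 8.19 in SD and 7.88, 7.88 and 7.64 in LL. Every SD array exceeded every LL array, with *pifq* SD mostly between WT SD and the LL arrays. In WT the log2 FC was 0.74 ± 0.14 (adjusted p = 0.00774), 1.67 fold.

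*SWEET11* (AT3G48740), known with *SWEET12* for sucrose export ahead of phloem loading in leaves, was flat. Its log2 signals were 11.33, 11.22 and 11.44 in WT SD, 11.25, 11.18 and 11.23 in WT LL, 11.37, 11.26 and 11.36 in *pifq* SD and 11.43, 11.37 and 11.35 in *pifq* LL. The SD to LL log2 FC in WT was 0.11 with a 95% interval of -0.11 to 0.33, and in *pifq* it was -0.05 (-0.27 to 0.16). Both intervals lie within the 1.5-fold limit, and the fold of the 2 differences was 1.08 and 1.04.

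Among the 11 SWEETs not called in WT, the log2 FC ran from -0.67 for *SWEET13* to 0.62 for *SWEET3*. *SWEET13*, a clade III sucrose and gibberellin carrier like *SWEET14*, had -0.67 ± 0.23 (adjusted p = 0.124). *SWEET17*, the vacuolar fructose carrier and the second clade IV member, had -0.53 ± 0.18 (adjusted p = 0.115), opposite in sign to *SWEET16*. *SWEET1*, a plasma membrane glucose carrier of clade I, had -0.42 ± 0.18 (adjusted p = 0.232). *SWEET3*, also of clade I, had 0.62 ± 0.22 (adjusted p = 0.127), opposite to the other clade I members, and was called without WT SD replicate 2 (0.85, adjusted p = 0.0305). None of the 4 clade II genes, *SWEET4* and *SWEET6* to *SWEET8*, was called, and their log2 FC ran from -0.37 to 0.30. No clade moved as a whole: clade I held 1 called gene of 3, clade III 1 of 5 and clade IV 1 of 2.

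The arrays of WT SD and WT LL did not overlap for 7 of the 14. WT SD was lower for *SWEET1*, *SWEET2*, *SWEET13*, *SWEET14* and *SWEET17*, which is 35.7% of the 14 beside 14.4% of all probe sets. It was higher for *SWEET8* and *SWEET16*, 14.3% beside 13.8%. Of the genes without overlap, *SWEET8*, *SWEET13* and *SWEET14* had a mean log2 signal under 5 and were not shown to lie above background. The group with the lowest mean was WT SD for 8 of the 14 genes and for 30.2% of all probe sets. *pifq* LL had the highest mean for 7 of the 14 and for 28.4% of all. These counts of group order also include such weak signals, some with close means. *SWEET4* had means of 3.05 in WT SD and 3.08 in WT LL, and *SWEET9* of 2.95 and 2.99. *SWEET6* had 3.23 in *pifq* LL and 3.22 in WT LL.

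**Figure D2:**
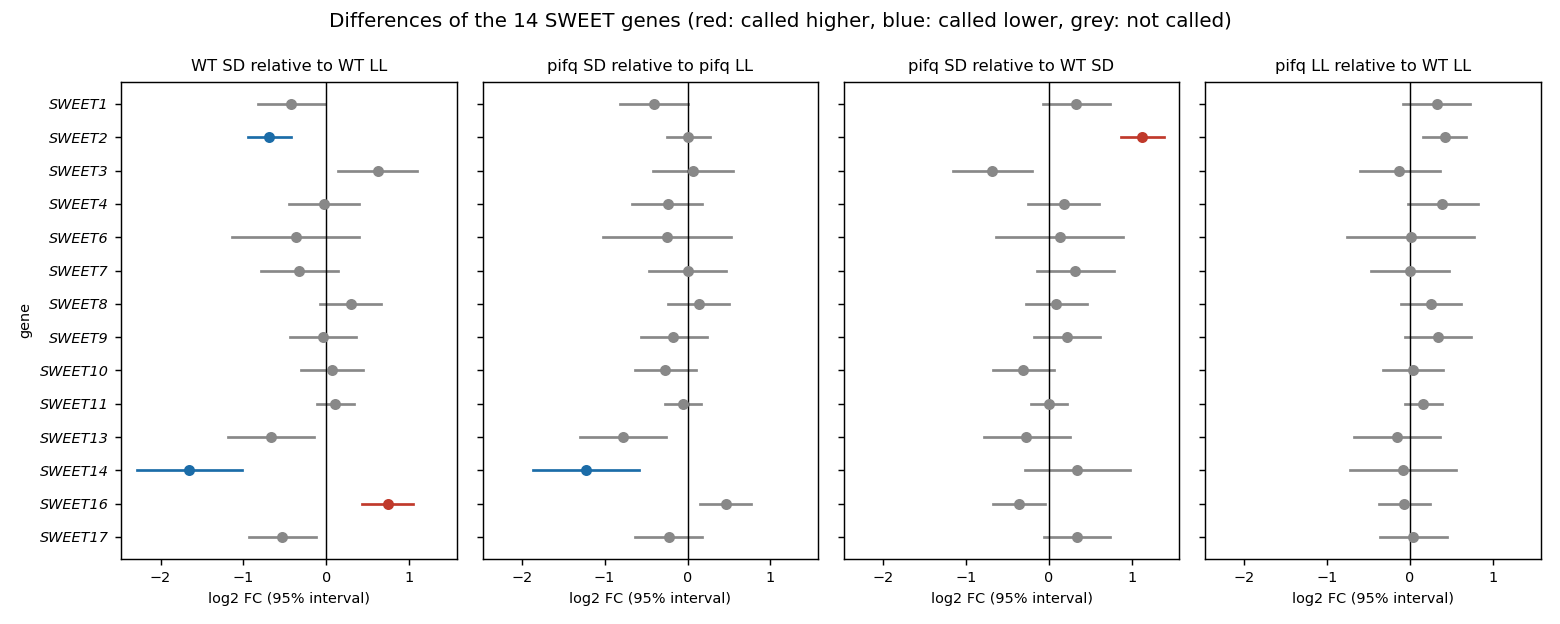
Log2 FC (x axis, points) with 95% intervals (lines) of the 14 *SWEET* genes (y axis) in 4 comparisons, in red where called higher, blue where called lower and grey where not called. Only *SWEET2*, *SWEET14* and *SWEET16* are coloured, and *SWEET2* changes colour between the WT SD comparison with LL (-0.69) and the *pifq* SD comparison with WT SD (1.13).

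The same light comparison within *pifq* called 1 of the 14, *SWEET14*, beside 3.66% of all probe sets (1.87% lower). Its log2 FC was -1.23 ± 0.29 (adjusted p = 0.0384), again between signals not shown to lie above background. This call was lost when any 1 of 11 of the 12 arrays was left out, with adjusted p from 0.0515 with WT LL replicate 3 removed to 0.135 with *pifq* SD replicate 3 removed. It held without *pifq* LL replicate 1 (adjusted p = 0.0361). *SWEET16* had 0.46 ± 0.14 (adjusted p = 0.103), and *SWEET13* had -0.78 ± 0.23 (adjusted p = 0.098), a log2 FC of the same sign and similar size as in WT. Over the 14 the median log2 FC was -0.19, against -0.01 over all probe sets, and 4 genes had an unadjusted p under 0.05, beside 18% of all probe sets. All 5 clade III genes had a log2 FC below 0, from -1.23 to -0.05, of which only that of *SWEET14* passed. Of all 14 SWEETs, 10 were below 0 in *pifq*, and in WT 3 of the 5 clade III genes were. Groups did not overlap for *SWEET13* and *SWEET14*, lower in SD (14.3% beside 11.3% of all probe sets), and for *SWEET16*, higher in SD (7.14% beside 10.6%).

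*SWEET13* is given by array as well, a choice made after its values were seen. Its log2 signal was 3.65, 3.60 and 4.15 in WT SD, 4.37, 4.75 and 4.29 in WT LL, 3.81, 3.32 and 3.49 in *pifq* SD and 3.94, 4.30 and 4.71 in *pifq* LL. The SD arrays lay below the LL arrays within each genotype, as for *SWEET14*, but narrowly. The highest SD and lowest LL values were 4.15 and 4.29 in WT and 3.81 and 3.94 in *pifq*. Neither SD to LL difference of *SWEET13* was called. All its signals lie under the median of the background probe sets and were not shown to lie above background. *SWEET10*, a sucrose carrier of clade III known from the floral transition, has the neighbouring locus (AT5G50790 beside AT5G50800) and a log2 FC of 0.07 in WT and -0.27 in *pifq*, neither of which was called.

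The comparison of *pifq* SD with WT SD asked which SWEETs differed without the 4 PIFs at the end of the night. *SWEET2* was higher in *pifq* and was the 1 gene called of 14, beside 1.49% of all probe sets (0.632% higher). Its log2 FC was 1.13 ± 0.12 (adjusted p = 0.00098), 2.19 fold, and it held without each of the 12 arrays in turn, with log2 FC from 1.05 to 1.21. *SWEET2* was also the only one of the 14 whose 2 groups did not overlap (7.14% beside 8.86% of all probe sets in that direction). These WT SD arrays are the ones compared with WT LL above, so the low WT SD values of *SWEET2* enter both results.

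None of the other 13 was called, and the log2 FC of *pifq* SD relative to WT SD ran from -0.68 ± 0.22 for *SWEET3* (adjusted p = 0.224) to 0.34 for *SWEET14* and *SWEET17*. *SWEET3* is shown by array as a choice made after its values were seen. Its log2 signal was 5.70, 5.06 and 5.81 in WT SD, 4.81, 5.12 and 4.77 in WT LL, 5.09, 4.62 and 4.82 in *pifq* SD and 4.55, 4.77 and 5.01 in *pifq* LL. WT SD replicates 1 and 3 lay above all other arrays, whereas replicate 2 lay among them. *SWEET16* had -0.36 ± 0.14 (adjusted p = 0.366). The median of the 14 was 0.15, against 0.03 over all probe sets, with 10 genes above 0, and 3 genes (*SWEET2*, *SWEET3* and *SWEET16*) had an unadjusted p under 0.05, beside 10.7% of all probe sets.

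In LL, where both genotypes had spent the last day in light, none of the 14 was called between *pifq* and WT in limma, beside 0.0184% of all probe sets. *SWEET2* alone had an unadjusted p under 0.05 (6.24% of all probe sets did), with a log2 FC of 0.42 ± 0.12 (adjusted p = 0.598) and a 95% interval of 0.16 to 0.68. The *pifq* LL arrays lay above the WT LL arrays without overlap for *SWEET2*, *SWEET4*, *SWEET8*, *SWEET9* and *SWEET11*, 35.7% of the 14 beside 7.74% of all probe sets. Their log2 FC were 0.42, 0.39, 0.25, 0.34 and 0.16. The mean signals of *SWEET4*, *SWEET8* and *SWEET9* lie under the median of the background probe sets and were not shown to lie above background. *SWEET4* is a glucose and fructose carrier of clade II and *SWEET9* the sucrose carrier of nectaries. The median over the 14 was 0.04, against 0.02 over all probe sets.

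Whether the response to SD differed between the genotypes was tested directly, as the SD to LL difference in *pifq* minus that in WT. None of the 14 was called, beside 0.155% of all probe sets. The difference for *SWEET2* was 0.71 ± 0.17 with a 95% interval of 0.34 to 1.07 (unadjusted p = 0.00153, adjusted p = 0.194), and it was the only one of the 14 with an unadjusted p under 0.05, beside 6.59% of all probe sets. It was called in 2 other settings, at adjusted p = 0.0497 over probe sets with a mean log2 signal of at least 5 and at adjusted p = 0.0417 with a trended, robust variance. For *SWEET14* the difference was 0.43 (-0.47 to 1.33, adjusted p = 0.98), for *SWEET16* -0.28 (-0.72 to 0.16, adjusted p = 0.932) and for *SWEET11* -0.16 (-0.47 to 0.15). A different response of *SWEET14* and *SWEET16* in *pifq* was thus not shown, and the intervals leave room for differences of more than 1.5 fold.

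A pair of further SWEETs stands on the array under other symbols and is outside the 14. *SAG29* (AT5G13170) is *SWEET15*, a sucrose carrier of seeds and senescing leaves. It had a log2 FC of -0.63 ± 0.24 in WT SD relative to WT LL (adjusted p = 0.161) and of -0.30 in *pifq*, and was not called in any comparison of all 12 arrays. Without *pifq* SD replicate 2 it was called lower in WT SD (-0.63, adjusted p = 0.0207). *AtVEX1* (AT5G62850) is *SWEET5*, known from pollen, with log2 FC of -0.02 in WT and -0.42 in *pifq*, also not called.

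Other sugar carriers were taken from a list of 12 genes of the vacuolar TMT family, the ERD6-like family and plastid exporters, of which the platform annotation named 5. In WT 3 of these 5 were lower in SD than in LL and none was higher, beside 3.43% of all probe sets called lower. *SFP2*, an ERD6-like carrier, had -1.32 ± 0.14 (adjusted p = 0.000275), its neighbour *SFP1* had -0.67 ± 0.13 (adjusted p = 0.00959), and *TMT2*, an importer of sugar into the vacuole, had -0.81 ± 0.10 (adjusted p = 0.000737). The log2 signals of *SFP2* were 6.53, 6.32 and 6.39 in WT SD and 7.66, 7.89 and 7.65 in WT LL. Of the 5, *SFP2* was called in *pifq* (beside 1.87% of all probe sets called lower), with -0.64 ± 0.14 (adjusted p = 0.0303), and this call was lost without WT SD replicate 3, WT LL replicate 3, *pifq* SD replicate 2 or 3, or *pifq* LL replicate 1 or 2 (adjusted p up to 0.107). The call in *pifq* was also lost in a limma fit of only the arrays compared (adjusted p = 0.185) and at a limit of 2 fold. In *pifq*, *SFP1* was not called. *TMT2* had -0.53 (adjusted p = 0.0168), which is under 1.5 fold. *TMT1*, another vacuolar importer, had 0.31 ± 0.09 in WT (adjusted p = 0.0642), and *TMT3* had -0.59 ± 0.29 (adjusted p = 0.303). None of the 5 was called between the genotypes. A sixth gene of the list, *ERD6*, is named only through the study's list of genes called on these arrays, and its values are a description. It lay higher in SD, with log2 signals of 10.34, 10.59 and 10.53 in WT SD and 9.83, 9.91 and 9.79 in WT LL, by 0.64 ± 0.12 in WT and by 0.78 ± 0.12 in *pifq*. Of the 5 carriers named by the platform annotation, only *TMT1* had a log2 FC above 0 in WT, and it was not called.

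Of 22 genes for the synthesis and cleavage of sucrose, the sugar that most clade III SWEETs carry, the platform annotation named 3. *SPS4F*, a sucrose phosphate synthase, had log2 signals of 7.15, 7.02 and 6.90 in WT SD and 8.90, 8.74 and 8.68 in WT LL, and of 7.19, 7.21 and 7.13 in *pifq* SD and 8.83, 8.72 and 8.64 in *pifq* LL. It was lower in SD by a log2 FC of -1.75 ± 0.11 in WT (adjusted p = 1.75e-05) and of -1.55 ± 0.11 in *pifq* (adjusted p = 0.000131). The invertases *CWINV6* (cell wall) and *VI1* (vacuole) were not called, with log2 FC of -0.51 and 0.01 in WT. *BZIP53*, the only named member of 8 sugar and energy signalling genes, encodes a factor of the low-energy response and had 0.40 ± 0.10 in WT (adjusted p = 0.0257), under 1.5 fold.

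The sugar and amino acid families could not be compared by the symbol rule, which found no amino acid carrier. A further 7 genes of the UMAMIT, AAP and LHT families were named only through the supplementary gene list of the study. That list holds genes already called on these same arrays. Their values are therefore given as a description, with no test, and how many of them differed says nothing about these families. Of 16 carriers of other amino acid families the platform annotation named *GAT1*, a transporter of gamma-aminobutyric acid. It had a log2 FC of 0.36 ± 0.10 in WT SD relative to WT LL (adjusted p = 0.0447) and of 0.39 ± 0.10 in *pifq* (adjusted p = 0.0498), both under 1.5 fold. *CAT2*, *CAT3*, *CAT6* and *PROT3* of these 16 were named only through the list of called genes, and their values are a description. In WT SD relative to WT LL, the log2 FC was 0.59 for *CAT2*, 0.71 for *CAT6*, -0.64 for *CAT3* and -1.81 for *PROT3*.

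The AAP and LHT importers so named lay higher in WT SD than in WT LL. *AAP3*, a root phloem permease for neutral and basic amino acids, had log2 signals of 7.31, 7.23 and 7.24 in WT SD, 5.86, 5.91 and 5.97 in WT LL, 6.94, 6.91 and 7.02 in *pifq* SD and 6.09, 6.47 and 5.76 in *pifq* LL. SD lay above LL without overlap in both genotypes, by 1.34 ± 0.16 in WT and 0.85 ± 0.16 in *pifq*. *LHT1*, an importer of amino acids into root and mesophyll cells, gave 8.12, 7.93 and 8.13 in WT SD, 7.30, 7.50 and 7.13 in WT LL, 7.68, 7.84 and 8.19 in *pifq* SD and 7.41, 7.31 and 7.29 in *pifq* LL. Its SD arrays were again above the LL arrays, by 0.75 ± 0.15 in WT and 0.57 ± 0.15 in *pifq*.

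*AAP6*, an amino acid permease of the vascular tissue, had another pattern. Its log2 signals were 8.07, 7.95 and 7.74 in WT SD, 7.31, 7.18 and 7.40 in WT LL, 6.83, 6.57 and 6.56 in *pifq* SD and 6.99, 7.13 and 7.33 in *pifq* LL. SD lay above LL in WT by 0.63 ± 0.14 and below it in *pifq* by a log2 FC of -0.50 ± 0.14. *pifq* SD was lower than WT SD by a log2 FC of -1.27 ± 0.14, without overlap.

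Among the UMAMIT facilitators the directions were mixed. *UMAMIT4* gave 8.90, 8.84 and 8.62 in WT SD, 8.31, 8.28 and 8.54 in WT LL, 8.10, 7.49 and 7.67 in *pifq* SD and 8.15, 8.14 and 8.14 in *pifq* LL, with a log2 FC of -1.04 ± 0.16 for *pifq* SD relative to WT SD. *UMAMIT10* gave 4.79, 5.13 and 4.73 in WT SD and 5.82, 6.03 and 5.99 in WT LL, a log2 FC of -1.07 ± 0.16, and -0.29 in *pifq*. For *SIAR1* (*UMAMIT18*), an amino acid carrier known from siliques, WT SD lay below WT LL with a log2 FC of -0.74 ± 0.19. *WAT1* (*UMAMIT5*), which is known as a vacuolar auxin carrier needed for secondary walls, differed little between WT SD and WT LL (0.06 ± 0.12) and had -0.79 ± 0.12 in *pifq* SD relative to WT SD.

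**Figure D3:**
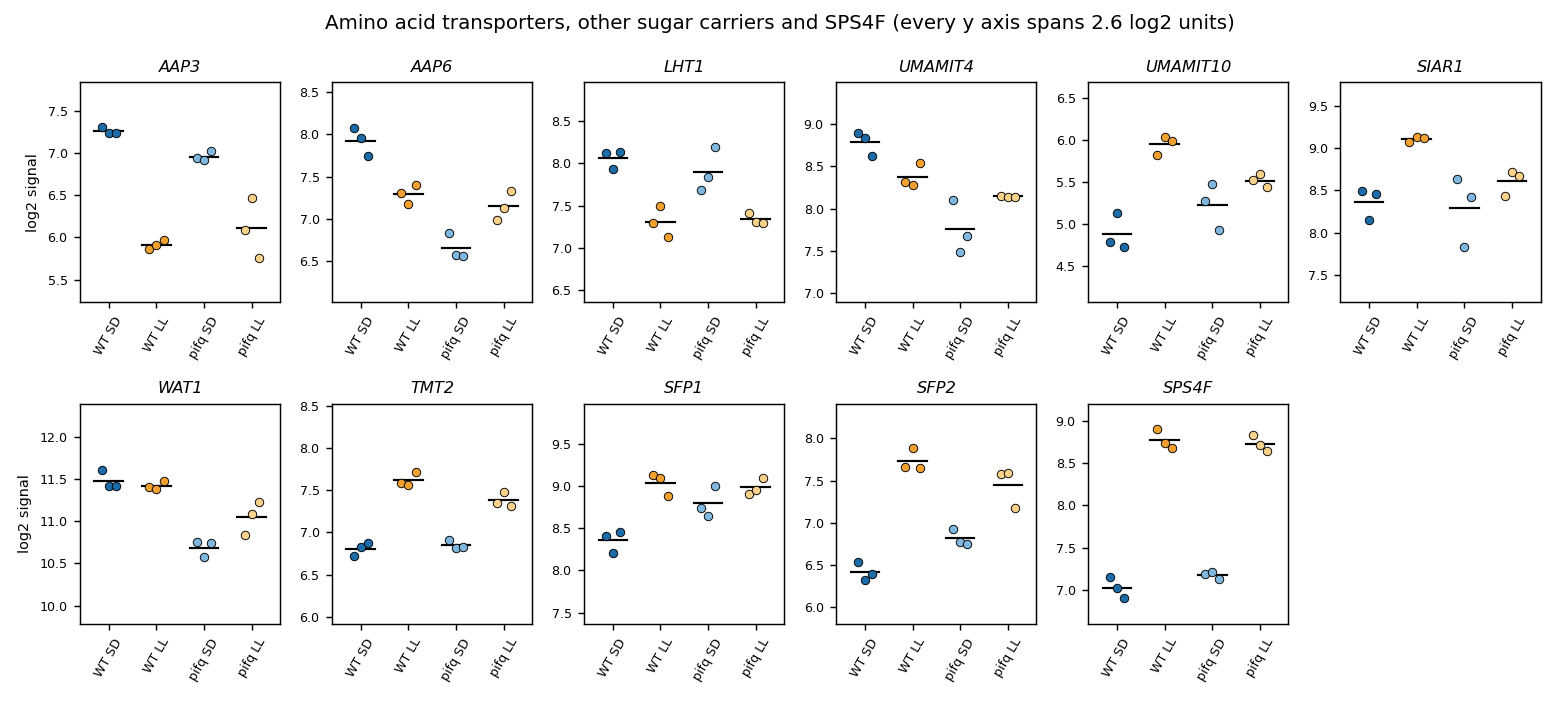
Log2 signal (y axis) in the 4 groups (x axis), with 1 point per array and a bar at the mean of the 3 arrays, for 7 genes of the UMAMIT, AAP and LHT families named only through the list of called genes, 3 other sugar carriers and *SPS4F*. *AAP6* is highest in WT SD and lowest in *pifq* SD, and *SFP2* runs from 6.41 (mean of WT SD) to 7.73 (mean of WT LL).

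Among the 14 SWEETs and the 7 UMAMIT, AAP and LHT genes, *SWEET2* had the highest log2 FC of *pifq* SD relative to WT SD, 1.13. *AAP6*, named through the list of called genes, had the lowest among them, -1.27. In WT SD relative to WT LL the 14 SWEETs ran from -1.66 to 0.74, and the 7 UMAMIT, AAP and LHT genes from -1.07 to 1.34. The 2 sets were chosen in different ways, so their difference was not tested. Both comparisons hold the same WT SD arrays.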

How the data were processed

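Total RNA of 12 samples was hybridised to AraGene 1.0 ST arrays. According to the submitters' processing notes the authors used RMA (its version is not given in the sources used here), and the deposited table holds log2 signals; no further scaling was applied. The methods' own calls came from Rosetta Resolver and were not used. Controls (98 of 38408 probe sets) were left out, as were 172 probe sets of genes that a brighter one represented, and 38138 were tested. The platform annotation named 1 gene for 16722, several for 759 and none for 20829; all 14 member symbols equal their RefSeq (TAIR10.1) symbol, and none shares its values with another probe set, as 7102 tested probe sets do. From the supplementary list of called genes only probe-to-locus pairs were read (1999, part of the list); its fold changes and p-values were not used.

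A mean per group was fitted by limma 3.58.1 under R 4.3.3 (lmFit, eBayes; checked on simulated data), with Benjamini-Hochberg adjustment and calls at adjusted p under 0.05 and at least 1.5 fold, for 5 comparisons. All members are accounted for, and those called in any comparison and the brightest of the family are given by array. Of the other lists, called members named by the platform annotation are given. Genes named only through the list of called genes are given in part. Left out were *SUS1*, *SPP2* and a list of nitrogen assimilation genes. Members and lists were chosen with earlier results of these data known. Alternatives were a filter on low signal, median centring, other variance models, fold limits and fits without each array. Labels and files give no scan date or batch. Labels and methods give different names for the growth medium. Promoter motifs and sequences were not analysed here. Python 3.11.15, pandas 2.3.3 and matplotlib 3.10.9 prepared tables and figures.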

Additional observations from a re-analysis of the deposited data

Results flagged for a closer look

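For *AAP6* and *UMAMIT4*, the arrays of SD and LL did not overlap in either genotype and lay in opposite order in WT and *pifq*, as they did for 190 of all 38138 probe sets (0.498%) and for none of the 14 SWEETs. The SD response in *pifq* minus that in WT was -1.13 ± 0.19 on the log2 scale for *AAP6* and -0.80 ± 0.22 for *UMAMIT4*. Both genes were named only through the list of genes called on these arrays and were then picked for this order. Their differences are a description, and no test is given for them.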

How the results depend on the processing

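No result among the SWEETs changed direction where it was called. Over the 14 SWEETs, 5 comparisons and 22 other settings, 1467 of their results stayed on the same side of the thresholds, 16 lost a call and 3 gained one. In WT SD relative to WT LL, the 3 called SWEETs became 1 (*SWEET14*) at a limit of 2 fold. The count was 2 over probe sets with a mean log2 signal of at least 5, which removes *SWEET14*, and 3 to 4 when single arrays were left out. The 1 call in *pifq* SD relative to *pifq* LL (*SWEET14*) became 0 over probe sets with a mean log2 signal of at least 5, which removes that gene, 0 in a fit of only the arrays compared (adjusted p = 0.201), and 0 to 1 without single arrays. The 1 call in *pifq* SD relative to WT SD (*SWEET2*) became 0 in a fit of only the arrays compared (adjusted p = 0.0702) and stayed at 1 without each single array. For the difference of the response between the genotypes, the count of 0 became 1 (*SWEET2*) with the filter at 5 and 1 with the trended, robust variance, and stayed at 0 without single arrays. No SWEET was called between the genotypes in LL under any setting. The causes were not tested.

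Over all probe sets, a fit of only the arrays compared called 185 in place of 1396 between SD and LL in *pifq* and 68 in place of 567 between *pifq* and WT in SD. A limit of 2 fold left 941, 480 and 227 in the comparisons with 2516, 1396 and 567. For the difference of the response, 59 became 225 with the filter, 203 with the trended variance and 6 to 26 without most single arrays. *pifq* LL relative to WT LL went from 7 to 19 and 18 with the filter and the trended variance. Without single arrays, *pifq* SD relative to WT SD fell to 275 and *pifq* SD relative to *pifq* LL to 833, both without *pifq* SD replicate 3.

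In 3 comparisons, arrays with the same replicate number deviated together at r of -0.067 to 0.055. Between *pifq* and WT in SD they did so at 0.147, 0.348 and 0.081, and arrays with different numbers at -0.232 to 0.119. Whether the SD arrays of the same number share a batch was not tested. With a replicate block the calls in *pifq* SD relative to *pifq* LL fell from 1 to 0 SWEETs (*SWEET14*, adjusted p = 0.0564), 35 in place of 59 probe sets were called for the difference of the response, and no other SWEET count changed. The amino acid families had no member by the symbol rule and gave no value under any setting.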
